A study of Mus musculus with 17 samples.

Results

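The collagen genes of sorted lung tumor cells were compared between 2 mouse genotypes and followed into the TRMs and MDMs, the macrophage populations of the same tumor model as the study abbreviates them. Members were all genes whose symbol has the form of a collagen chain (Col, a type number, a, a chain number) in the tumor cell table, which gave 36 of the 16410 genes listed there. Of these, 21 were found in the TRM table, 23 in the MDM table, 19 in all 3 tables and 11 in the tumor cell table alone. Col6a4 was listed in the MDM table alone and was not a member.

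KL and KLG4 mice carried Lkb1fl/fl in a shared tumor-prone background, and KLG4 mice also carried Gpx4m/m. Both genotypes received Ad-Cre by the intranasal route and tamoxifen, and cells were taken from tumor lungs 10 weeks after Ad-Cre, so that the background, the Lkb1 allele and both agents were shared by all groups. Poly(A) RNA was sequenced in 2 KL and 2 KLG4 libraries of each population, which gave 12 libraries. The study describes the tumor cell replicates as separate mice, and for the macrophages the labels do not say whether replicates came from separate animals, so that their p-values measure the spread between libraries, which may be technical. In the Gpx4m/m allele a tamoxifen-dependent recombinase becomes available only where Cre has acted. Tumor cells were sorted as EpCAM+ and CD31-, and the methods and the rest of the study differ on the sign of CD45 in that gate.

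Collagens are the main structural proteins of the extracellular matrix, built as triple helices of 3 alpha chains that may come from different genes. Fibrillar collagens form the tensile fibers of connective tissue and are made chiefly by fibroblasts. Collagen IV forms the sheet-like network of basement membranes under epithelium and endothelium, collagen VI forms beaded filaments beside it, and smaller classes link, cap or anchor these structures. In lung, the collagen IV chains encoded by Col4a3 to Col4a5 belong to the alveolar basement membrane.

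Recovered depth ranged from 15920000 to 36620000 counted reads in tumor cells, from 9141000 to 26770000 in TRMs and from 10380000 to 26070000 in MDMs. Mitochondrial genes and their nuclear copies took 14.7% to 14.9% of reads in KLG4 tumor cells and 7.4% to 8.29% in KL, 2.97% to 5.8% in KLG4 TRMs and 22.5% to 31.6% in KL, and 0.927% to 1.34% in KLG4 MDMs and 2.77% to 7.36% in KL. The 2 KLG4 tumor cell libraries were closer to each other than any other pair, with a mean chi-square per gene of 3.28 against 28.9 to 132.0 in the other 5 pairs. Gpx4, the targeted gene, was at 56.4 and 61.9 RPKM (reads per kilobase of exon scaled to the counted reads of a library) in KLG4 tumor cells and at 94.95 and 76.8 RPKM in KL (log2 fold change -0.53, SE 0.15, adjusted p = 0.036 in limma). Gpx4 was not called in either macrophage table in limma. KLG4 TRMs had 53.8 and 57.0 RPKM of Gpx4 next to KL levels of 89.8 and 88.2 RPKM (log2 fold change -0.68, adjusted p = 0.0697), and KLG4 MDMs had 93.6 and 97.7 RPKM next to KL levels of 44.9 and 71.3 RPKM (0.76, adjusted p = 0.679). In TRMs, Xist was at 18.3 and 20.2 RPKM in KLG4, next to KL levels of 0.257 and 0.501 RPKM, so that the sex of the animals and the genotype cannot be told apart there. In MDMs, Xist was at 0.839 RPKM in KL replicate 2 and between 19.4 and 21.8 RPKM in the other libraries. Xist, which marks female cells, was chosen for naming after its values were seen.

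The labelled cell type was checked on marker genes. A gene was tested where at least 2 of 4 libraries reached 1 RPKM, and called at an adjusted p under 0.05 in limma. Epithelial markers were present in each tumor cell library, with Epcam at 214.5 and 211.3 RPKM in KLG4, next to KL levels of 638.0 and 419.8 RPKM, and 7 of 8 of them were lower in KLG4. Markers of several other cell types were higher in KLG4. The fibroblast list without collagens summed to 480.5 and 496.6 RPKM in KLG4, next to KL levels of 11.4 and 14.2 RPKM, and all 10 of its genes were called higher, 8 of which, with both KL libraries under 1 RPKM, were tested through KLG4 alone and had to differ. Its defining genes Pdgfra (8.10 and 7.75 RPKM against 0.278 and 0.442 RPKM) and Pdgfrb (5.4 and 4.98 RPKM against 0.469 and 0.4165 RPKM) were among them. The 7 listed leukocyte markers summed to 159.3 and 163.4 RPKM against 18.2 and 21.9 RPKM, with Ptprc at 26.7 and 27.35 RPKM against 0.834 and 2.06 RPKM, and all were called higher, 2 of them tested through KLG4 alone. The macrophage list (995.4 and 1039 RPKM against 241.4 and 307.8 RPKM, 7 of 7 tested genes higher, among them Adgre1 at 7.06 and 6.56 RPKM against 0.370 and 0.632 RPKM) and the list of pericyte and smooth muscle markers (61.1 and 65.8 RPKM against 10.4 and 6.21 RPKM, 4 of 4 tested genes higher) moved the same way, with 2 and 1 of those genes tested through KLG4 alone. Endothelial markers differed little in sum, at 23.9 and 26.2 RPKM against 22.5 and 17.7 RPKM, with 3 of 6 higher (1 tested through KLG4 alone) and Pecam1 at 3.72 and 4.175 RPKM against 2.23 and 1.17 RPKM. Of the alveolar macrophage list 4 of 7 tested genes were higher (1 tested through KLG4 alone) and of the plasma cell list 5 of 7 (4 in that way), with 1 lower, while the mesothelial list summed to 45.25 and 48.9 RPKM against 83.25 and 62.25 RPKM, with its 1 tested gene lower. No gene of these lists that was in the table was at 0 in all 4 libraries. The part of these cells in the collagen values below was not tested, and in bulk samples fewer cells of a type and less RNA per cell cannot be told apart.

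In KLG4 tumor cells 6 of 8 tested fibrillar genes, both tested fibril-associated genes and 4 of 4 tested collagen VI genes were higher than in KL tumor cells, and Col7a1, Col18a1 and 2 of 6 collagen IV genes were lower. The filter was passed by 28 of 36 members. Of these 28, 17 (60.7%) were called higher in KLG4 at an adjusted p under 0.05, beside 20.6% of all genes tested in that direction. Called lower were 4 (14.3%), a smaller share than the 19.6% of all genes. In all, 21 were called, beside 40.3% of all genes. The other 7 were not called. Of the 17, 7 passed the filter through KLG4 alone, with both KL libraries under 1 RPKM (Col5a1, Col5a3, Col6a5, Col8a1, Col13a1, Col14a1 and Col28a1), and of the 4 lower, Col4a3 passed through KL alone, so that these had to differ to be tested. Among the 20 members with at least 1 library of each genotype at 1 RPKM, 10 were called higher and 3 lower. The share of all genes called under that condition was not computed, so that these counts have no matching background. The same 17 and 4 counts were found at the threshold of the study (unadjusted p under 0.05 and at least 2-fold), where 16.6% and 7.26% of all genes passed. The median log2 fold change, which the same filter touches, was 2.00 over the 28 members and -0.09 over all genes tested. KLG4 and KL libraries did not overlap for 26 of the 28, with 19 higher in KLG4 (32.5% of all genes) and 7 lower (42.2%).

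**Figure D1:**
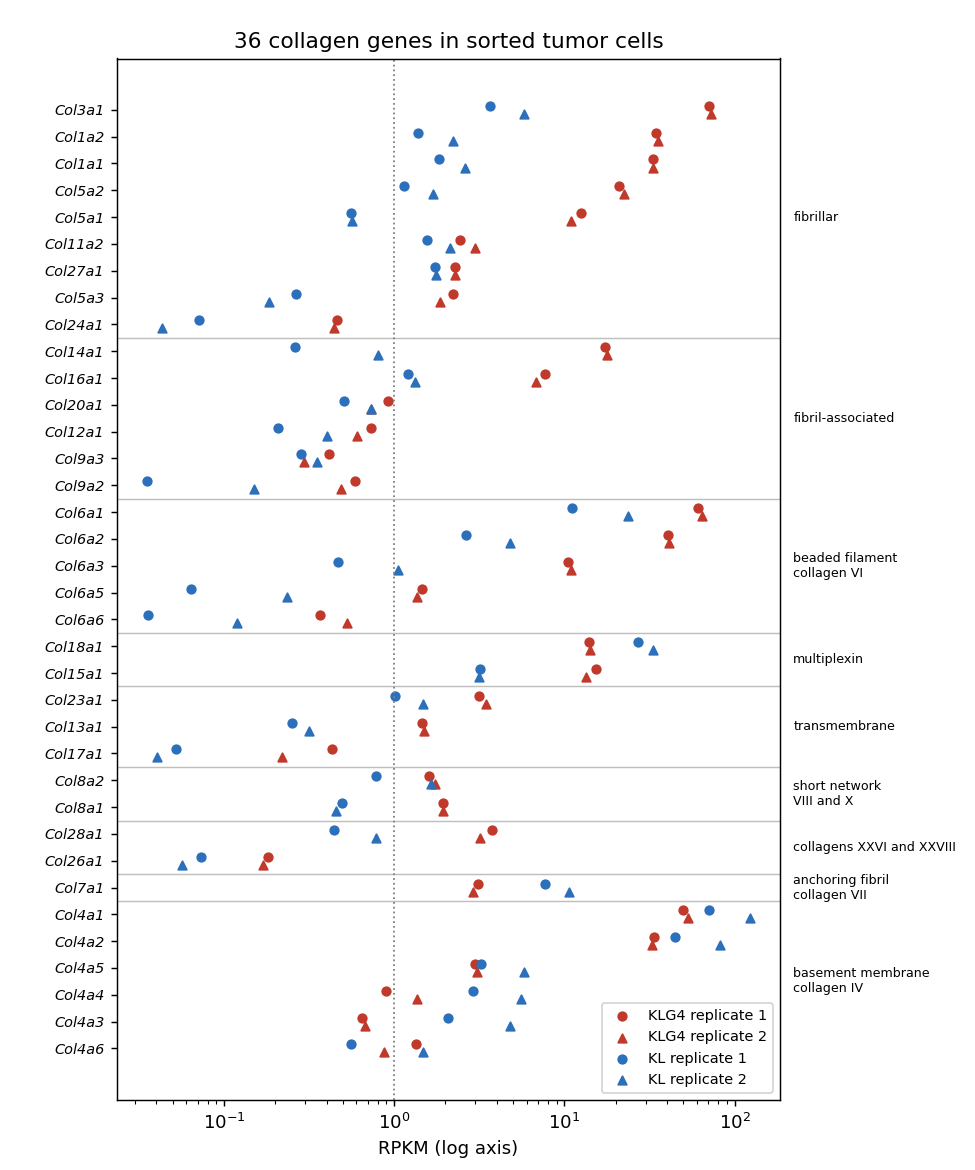
RPKM of the 36 collagen genes in the 4 tumor cell libraries on a log axis, with KLG4 in red, KL in blue, replicate 1 as circles and replicate 2 as triangles; the dotted line is 1 RPKM and genes are grouped by class. For Col3a1 the red points sit at 70.9 and 72.99 RPKM and the blue points at 3.66 and 5.82 RPKM, whereas for Col4a1 the blue points (70.4 and 123.0 RPKM) lie above the red ones (49.7 and 53.1 RPKM).

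The summed RPKM of all members was 454.8 and 462.6 in KLG4 tumor cells and 193.7 and 325.2 in KL. The makeup of that sum differed more than its size. Col4a1 and Col4a2 together made up 59.3% and 63.0% of the sum in KL and 18.3% and 18.6% in KLG4. Col1a1, Col1a2 and Col3a1 made up 3.56% and 3.27% in KL and 30.5% and 30.6% in KLG4. The ratio of Col4a1 to Col1a1, on the RPKM scale, was 38.2 and 47.3 in KL and 1.49 and 1.6 in KLG4.

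**Figure D2:**
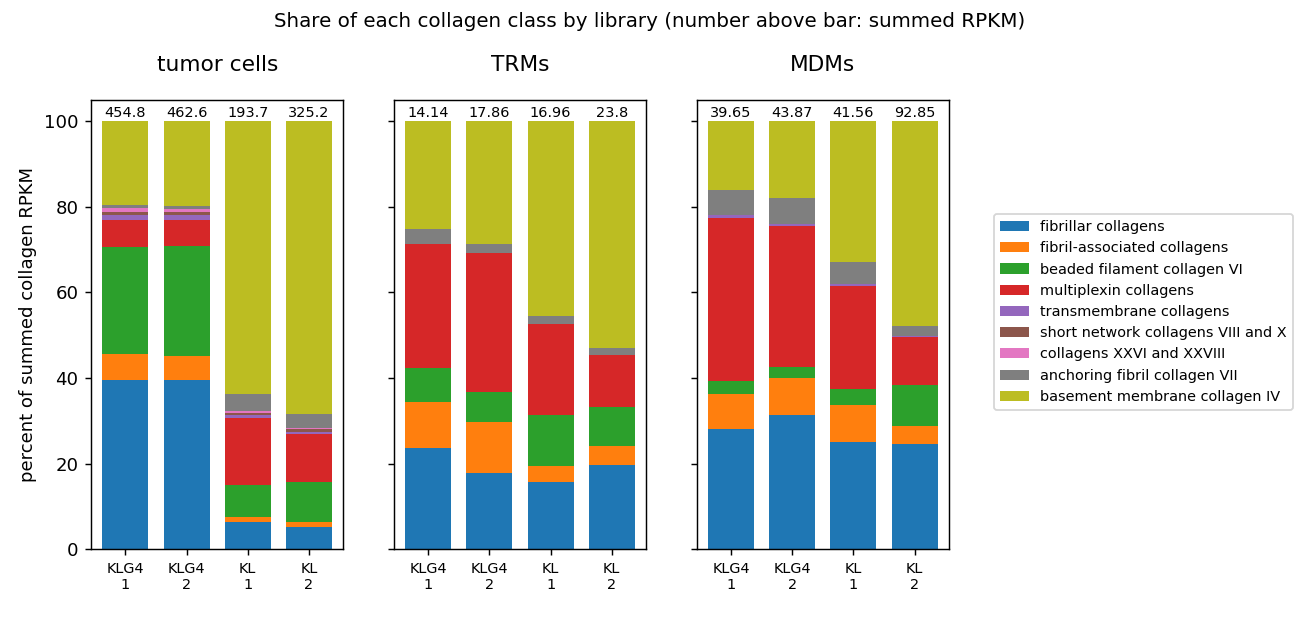
Percent of the summed collagen RPKM held by each class in each library, with the sum in RPKM above each bar; one panel for each population, and replicates 1 and 2 of KLG4 and KL side by side. In tumor cells the basement membrane class fills most of both KL bars and the fibrillar class is the largest in both KLG4 bars.

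Promoter sequence was read from RefSeq (GRCm38.p6) for the members that moved together, and 29 of 36 members had an entry, with 31 promoters in all. Of the sequences shown, Col3a1 and Col5a1 belong to the fibrillar class that was higher, Col7a1 to the lower members, and the last is the stretch of 71 bases between the starts of Col4a4 and Col4a3, neighbours that point away from each other and were both lower. The first 3 are the 250 bases before the start of the gene, at chr1:45311288-45311537, chr2:27886175-27886424 and chr9:108953336-108953585 on the plus strand, and the last is chr1:82586850-82586920, read on the minus strand, that of Col4a4. Capitals mark, on either strand, the CCAAT box, the TATA box with the letters TATAAA, and the GC box with the letters GGGCGG.
Col3a1: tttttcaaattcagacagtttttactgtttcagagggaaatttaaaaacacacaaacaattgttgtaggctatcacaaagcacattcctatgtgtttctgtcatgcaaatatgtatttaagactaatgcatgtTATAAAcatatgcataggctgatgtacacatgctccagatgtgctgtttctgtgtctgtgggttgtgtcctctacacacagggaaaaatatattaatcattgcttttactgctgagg
Col5a1: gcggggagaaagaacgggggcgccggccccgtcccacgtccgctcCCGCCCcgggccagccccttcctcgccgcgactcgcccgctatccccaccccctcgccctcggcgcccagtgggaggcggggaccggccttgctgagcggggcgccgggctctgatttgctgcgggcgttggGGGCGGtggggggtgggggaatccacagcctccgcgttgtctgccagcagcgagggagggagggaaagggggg
Col7a1: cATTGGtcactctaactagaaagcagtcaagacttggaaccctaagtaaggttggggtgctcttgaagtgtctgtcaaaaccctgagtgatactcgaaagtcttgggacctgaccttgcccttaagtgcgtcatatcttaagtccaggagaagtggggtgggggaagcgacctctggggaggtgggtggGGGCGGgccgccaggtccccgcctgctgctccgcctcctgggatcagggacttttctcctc
Col4a4 to Col4a3: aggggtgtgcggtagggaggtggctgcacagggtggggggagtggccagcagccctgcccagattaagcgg

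The Col3a1 window holds TATAAA once and has a GC content of 35.2%, and the Col5a1 window holds GGGCGG at 2 places and has a GC content of 76.4%, although both genes rose by a similar fold. Col7a1 holds CCAAT and GGGCGG once each, and none of the 3 motifs is in the stretch between Col4a4 and Col4a3. Over the 31 promoters of members, 29.0% held CCAAT against 33.8% of 32851 promoters of the same length, 12.9% held TATAAA against 12.4%, and 61.3% held GGGCGG against 32.7%. GGGCGG was in 9 of 15 promoters of members called higher, 2 of 4 of those called lower and 6 of 7 of those not called. These are matches of letters, not sites. Gene positions are given on GRCm38. Reads were counted without strand, so that Col4a1 and Col4a2 where they overlap, and members with an overlapping or antisense partner (Col9a3, Col12a1, Col14a1, Col15a1, Col18a1, Col24a1), are uncertain to that extent.

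Fibrillar collagens held the highest folds together with Col14a1. Of 9 fibrillar members, 8 were tested, 6 were called higher and 2 were not called, and the class summed to 179.4 and 182.5 RPKM in KLG4, next to KL levels of 12.2 and 17.0 RPKM. Type I collagen, the main fiber of most connective tissue, is built from the products of Col1a1 and Col1a2. Col1a1 (chr11:94936224-94953042) was at 33.3 and 33.15 RPKM in KLG4, next to KL levels of 1.84 and 2.6 RPKM (log2 fold change 3.86, SE 0.20, adjusted p = 2.52e-04 in limma). Col1a2 (chr6:4504814-4541544) was at 34.35 and 35.5 RPKM against 1.385 and 2.22 RPKM (4.24, SE 0.24, adjusted p = 3.22e-04). Their ratio to each other stayed near 1, at 0.97 and 0.935 in KLG4 and 1.33 and 1.17 in KL.

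Col3a1, whose product forms fibers with type I in elastic organs such as lung, was the highest member in KLG4 tumor cells, where it reached 70.9 and 72.99 RPKM against 3.66 and 5.82 RPKM (3.93, SE 0.23, adjusted p = 3.53e-04). Its neighbour Col5a2, 24614 bases away on chromosome 1 with the genes end to end, was at 21.0 and 22.4 RPKM against 1.14 and 1.68 RPKM (3.87, SE 0.22). Collagen V is a minor chain set that starts and limits fibrils. Its other chains also rose, Col5a1 from KL levels of 0.553 and 0.565 RPKM to 12.5 and 10.9 RPKM (4.16, SE 0.18, adjusted p = 1.72e-04 in limma) and Col5a3 from 0.265 and 0.1845 RPKM to 2.22 and 1.86 RPKM (2.73, SE 0.26). For these 6 fibrillar genes the lowest KLG4 library exceeded the highest KL library by 7.04 times (Col5a3) to 19.3 times (Col5a1). Col11a2 and Col27a1, cartilage-type fibrillar chains, were not called: Col11a2 was at 2.42 and 2.97 RPKM against 1.57 and 2.14 RPKM (0.53, adjusted p = 0.134) and Col27a1 at 2.26 and 2.29 RPKM against 1.73 and 1.75 RPKM (0.37, adjusted p = 0.169). The fibrillar sum divided by the sum of the fibroblast markers without collagens was 0.373 and 0.367 in KLG4 and 1.07 and 1.2 in KL, so that the markers differed by more than the collagens did.

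Fibril-associated collagens sit on the surface of fibrils. Col14a1, which regulates fibril diameter, had the largest fitted fold of any member, at 17.2 and 17.9 RPKM in KLG4, next to KL levels of 0.261 and 0.8015 RPKM (4.95, SE 0.44, adjusted p = 9.32e-04 in limma). The KL values of Col14a1 rested on 67 and 170 reads, and both lay far below either KLG4 library. Col16a1 was at 7.71 and 6.81 RPKM against 1.21 and 1.33 RPKM (2.43, SE 0.18). The other 4 of this class, Col9a2, Col9a3, Col12a1 and Col20a1, did not pass the filter.

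Collagen VI had 5 members in the table, and the 4 tested were all called higher, with class sums of 114.1 and 118.9 RPKM in KLG4, next to KL levels of 14.3 and 30.01 RPKM. The main form joins the chains of Col6a1, Col6a2 and Col6a3. Col6a1 was at 61.2 and 64.7 RPKM against 11.1 and 23.8 RPKM (1.95, SE 0.35, adjusted p = 0.0097 in limma). Col6a2, its neighbour on chromosome 10, was at 40.55 and 41.4 RPKM against 2.66 and 4.805 RPKM (3.48, SE 0.28). Col6a3 was at 10.5 and 10.9 RPKM against 0.470 and 1.05 RPKM (3.74, SE 0.35). Transcripts for this heterotrimer were thus present in different proportions in the 2 genotypes. Col6a1 exceeded Col6a2 by 4.16 and 4.95 times in KL and by 1.51 and 1.56 times in KLG4. Col6a5, which can stand in for Col6a3, was at 1.46 and 1.37 RPKM against 0.0638 and 0.235 RPKM (2.69, SE 0.40).

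Among the transmembrane collagens, Col13a1 was at 1.45 and 1.5 RPKM in KLG4, next to KL levels of 0.249 and 0.316 RPKM (2.05, SE 0.25), and Col23a1 at 3.15 and 3.46 RPKM against 1.01 and 1.48 RPKM (1.36, SE 0.24, adjusted p = 0.00943 in limma). Col28a1, a von Willebrand domain collagen known from nerve, rose from 0.440 and 0.782 RPKM to 3.76 and 3.19 RPKM (2.37, SE 0.30). Col8a1, a short-chain network collagen of vessels and fibroblasts, rose from 0.492 and 0.453 RPKM to 1.93 and 1.94 RPKM (1.83, SE 0.22). Its partner Col8a2 overlapped between the genotypes, at 1.60 and 1.735 RPKM in KLG4, next to KL levels of 0.779 and 1.64 RPKM (0.51, adjusted p = 0.304).

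The multiplexins are basement membrane collagens that carry endostatin-type fragments, and the 2 genes went in opposite directions. Col15a1 was at 15.25 and 13.4 RPKM in KLG4, next to KL levels of 3.17 and 3.16 RPKM (2.14, SE 0.15, adjusted p = 5.11e-04 in limma). Col18a1 was at 13.9 and 14.1 RPKM in KLG4, next to KL levels of 27.1 and 33.3 RPKM (-1.09, SE 0.15, adjusted p = 0.00359). Their levels were close in KLG4, whereas Col18a1 exceeded Col15a1 in both KL libraries.

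Collagen IV was the largest class in KL tumor cells. It summed to 123.6 and 222.4 RPKM in KL, next to KLG4 levels of 88.9 and 91.8 RPKM, and 2 of its 6 genes were called lower and 4 not called. Col4a1 and Col4a2, whose products form the collagen IV of nearly all basement membranes, start from opposite strands of chromosome 8 with 22 bases in common. Col4a1 was at 70.4 and 123.0 RPKM in KL, next to KLG4 levels of 49.7 and 53.1 RPKM (-0.86, SE 0.27, adjusted p = 0.0524 in limma). Col4a2 was at 44.4 and 81.8 RPKM against 33.4 and 32.7 RPKM (-0.87, SE 0.29, adjusted p = 0.0628). The libraries of the 2 genotypes did not overlap for either gene, and the 2 KL replicates differed from each other by about as much as the genotypes did. The ratio of Col4a1 to Col4a2 was 1.59 and 1.5 in KL and 1.49 and 1.62 in KLG4.

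Col4a3 and Col4a4, of the alveolar and glomerular basement membrane, were the chains called lower. They start 71 bases apart on opposite strands of chromosome 1. Col4a3 was at 2.07 and 4.78 RPKM in KL, next to KLG4 levels of 0.6425 and 0.674 RPKM (-2.10, SE 0.41, adjusted p = 0.0122 in limma). Col4a4 was at 2.895 and 5.54 RPKM in KL, next to KLG4 levels of 0.897 and 1.36 RPKM (-1.77, SE 0.37, adjusted p = 0.0158). Col4a5, the X-linked chain of the same heterotrimer, was at 3.24 and 5.75 RPKM against 2.97 and 3.06 RPKM (-0.51, adjusted p = 0.224). Col4a6, its neighbour, overlapped between genotypes, at 0.555 and 1.485 RPKM in KL, next to KLG4 levels of 1.34 and 0.8745 RPKM (0.22, adjusted p = 0.741). KL replicate 2 was above KL replicate 1 for all 6 genes of the class.

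Col7a1, which anchors epithelial basement membranes to the fibers beneath, was at 7.70 and 10.7 RPKM in KL, next to KLG4 levels of 3.11 and 2.91 RPKM (-1.56, SE 0.21, adjusted p = 0.00342 in limma). Markers of alveolar epithelium moved in the same direction as the lower members. The AT2 list (alveolar type 2 cells) summed to 1253 and 1268 RPKM in KLG4, next to KL levels of 3615 and 4072 RPKM, with 8 of 8 genes lower, and the AT1 list (alveolar type 1 cells) to 442.8 and 420.3 RPKM against 1425 and 1428 RPKM, with 7 of 8 lower, 1 of which was tested through KL alone. No gene of these 2 lists was at 0 in all 4 libraries, and their part in the lower collagens was not tested. The collagen IV sum divided by the sum of the epithelial markers was 0.0246 and 0.0252 in KLG4 and 0.0146 and 0.0354 in KL, so that on this scale the genotypes overlapped.

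**Figure D3:**
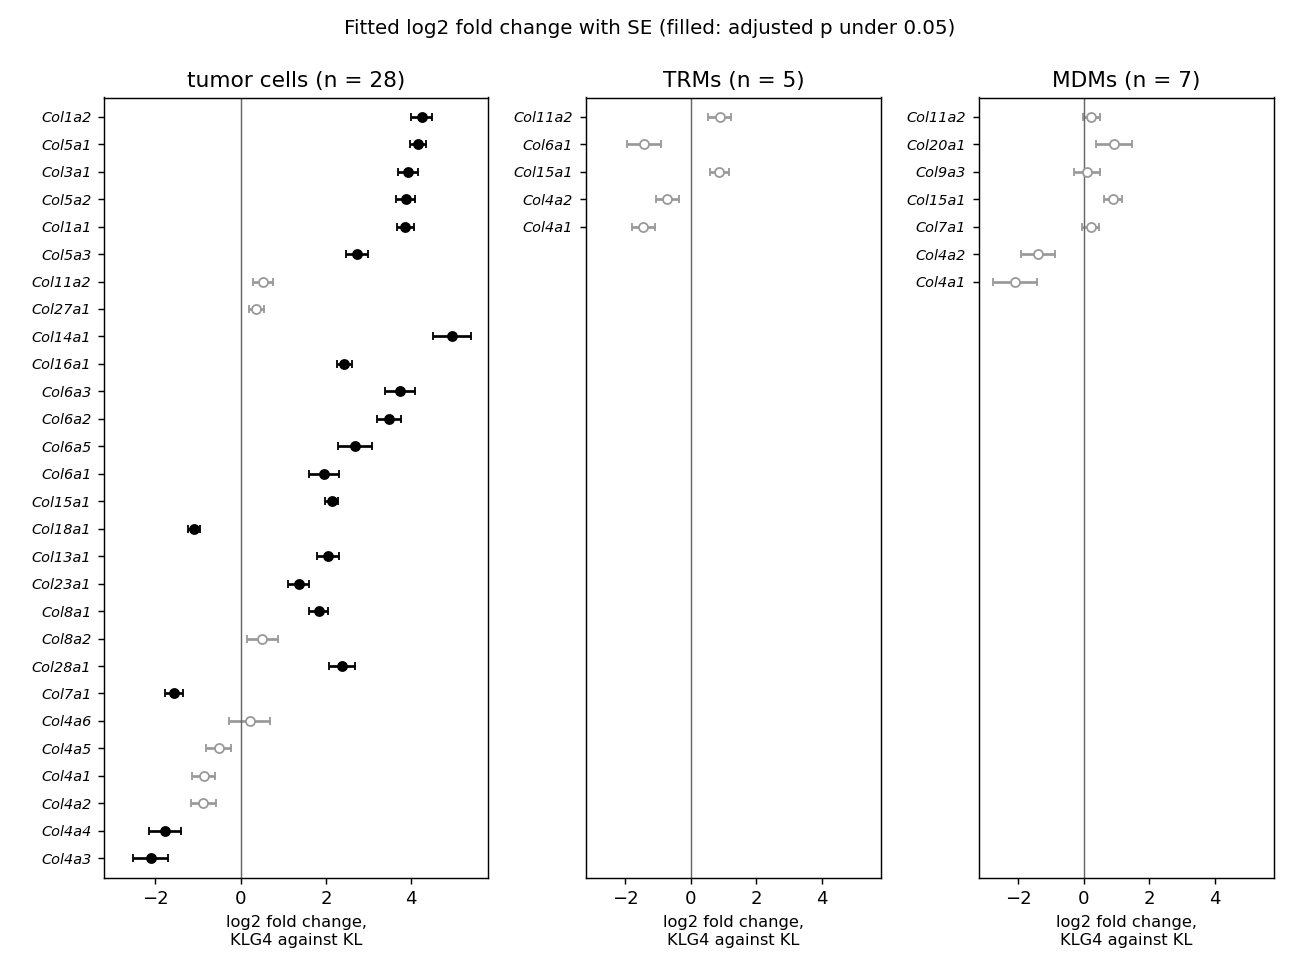
Fitted log2 fold change, KLG4 against KL, with its standard error for each collagen gene tested, in panels for tumor cells (28 genes), TRMs (5) and MDMs (7); filled points passed the adjusted p threshold. In tumor cells 17 filled points lie right of 0 and 4 left of it, and no point is filled in the macrophage panels.

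When the 2 KLG4 tumor cell libraries were averaged and counted as 1 sample, 15 of the 21 calls remained in limma, while the share of all genes called fell from 40.3% to 14.0%. The 6 lost were Col7a1 (log2 fold change -1.56, adjusted p = 0.0531), Col18a1 (-1.09, 0.0641), Col6a1 (1.95, 0.0903), Col23a1 (1.36, 0.0954), Col4a3 (-2.10, 0.0994) and Col4a4 (-1.74, 0.101), so that 0 of the 4 lower members were called, where 2.48% of all genes were called lower. Their fold changes thus stayed close to those with both libraries. Without KLG4 replicate 1 the same genes other than Col7a1 were lost (14.5% of all genes called), and without KLG4 replicate 2 all 6 were (14.0%), with the lone KLG4 library taken to vary like the KL group. The log2 fold changes of Col4a1 and Col4a2 were -1.26 and -1.31 without KL replicate 1, and -0.45 and -0.43 without KL replicate 2. Those fits held a lone KL library, so that the spread came from the close KLG4 pair and no call was drawn from them. With limma-voom on the recovered reads Col4a1 and Col4a2 passed (adjusted p = 0.0236 and 0.0282, with 39.4% of all genes called).

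The 8 members below the filter had means of 0.12 to 0.724 RPKM over the 4 libraries, and 7 of them were higher in both KLG4 libraries than in either KL library, as were 43.6% of the 2640 genes below the filter. Col24a1, a fibrillar collagen of bone, was at 0.461 and 0.445 RPKM against 0.0717 and 0.0434 RPKM. Col6a6 was at 0.365 and 0.528 RPKM against 0.03575 and 0.119 RPKM, Col9a2 at 0.586 and 0.487 RPKM against 0.0353 and 0.150 RPKM, and Col17a1, a hemidesmosome protein of epithelium, at 0.4325 and 0.218 RPKM against 0.0521 and 0.04015 RPKM. The KL values of Col9a2 rested on 4 and 14 reads. Col12a1 (0.729 and 0.602 RPKM against 0.208 and 0.402 RPKM), Col26a1 (0.180 and 0.169 RPKM against 0.0735 and 0.0566 RPKM) and Col20a1 (0.919 and 0.734 RPKM against 0.508 and 0.733 RPKM) were higher by less, and Col9a3 overlapped, at 0.412 and 0.293 RPKM against 0.2835 and 0.352 RPKM.

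Genes that make, cross-link, bind and degrade collagen were read from lists beside the members, with 20.6% of all genes called higher and 19.6% lower as the background. As with the members, a list gene with both KL libraries under 1 RPKM was tested through KLG4 alone and had to differ, and the counts below say how many of those called higher were of this kind. Of 9 tested genes for procollagen processing and cross-linking 7 were higher and 0 lower (7 and 0 at an unadjusted p under 0.05), 6 of them tested through KLG4 alone. The other was Pcolce, an enhancer of C-terminal cleavage (8.49 and 9.96 RPKM against 5.58 and 4.515 RPKM, 0.86, adjusted p = 0.0156 in limma), while the abundant Sparc, a collagen chaperone, gave -0.12 and the protease gene Bmp1 0.19. Of 20 tested genes for modification, folding and export 9 were higher, 4 of them through KLG4 alone, and 3 lower. Serpinh1, which encodes the collagen chaperone HSP47, was at 76.15 and 71.2 RPKM against 28.0 and 34.0 RPKM (1.25, adjusted p = 0.00192 in limma), whereas the general folding genes P4hb (-0.08) and Ppib (-0.31) were not called. Of 12 collagen-binding matrix genes 11 were higher, 5 of them through KLG4 alone. Dcn, which encodes the proteoglycan decorin, went from 3.145 and 4.57 RPKM to 208.5 and 203.4 RPKM (5.73) and Thbs1 from 70.5 and 121.5 RPKM to 180.9 and 188.2 RPKM (0.99), and Fn1 gave 0.29 and was not called.

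Of 11 tested genes for degradation and uptake 9 were higher, 2 of them through KLG4 alone, and 1 lower. Mmp3 rose from 16.98 and 4.92 RPKM to 49.05 and 48.5 RPKM (2.40, adjusted p = 0.0208 in limma), Ctsb from 57.1 and 60.0 RPKM to 81.1 and 81.2 RPKM (0.47), and Mmp14 fell from 35.7 and 27.4 RPKM to 18.05 and 19.1 RPKM (-0.75, adjusted p = 0.018). Of 7 receptor genes 4 were higher, each tested through KLG4 alone, and 2 were lower. The lower ones were Itga2 (21.2 and 19.7 RPKM against 41.4 and 51.6 RPKM, -1.18) and Itgb1 (75.5 and 80.1 RPKM against 115.8 and 113.9 RPKM, -0.56), the integrin chains through which epithelium binds collagen. Of 12 basement membrane partners of collagen IV 3 were higher, 2 of them through KLG4 alone, and 4 lower, beside 20.6% and 19.6% of all genes. The epithelial laminin gene Lamb3 was at 20.2 and 22.9 RPKM against 51.0 and 44.5 RPKM (-1.15), while Lamb2 gave -0.33 and was not called. Of 10 genes of TGF-beta ligands, receptors and responses, a pathway that induces collagen genes, 7 were higher, 1 of them through KLG4 alone, with Ctgf at 55.7 and 58.8 RPKM against 16.98 and 16.9 RPKM (1.75). Skil (0.95) and Tgfbi (0.96) were the other abundant ones. The lists overlap in function with fibroblast and leukocyte markers, which moved with them as given above, and their part was not tested.

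**Figure D4:**
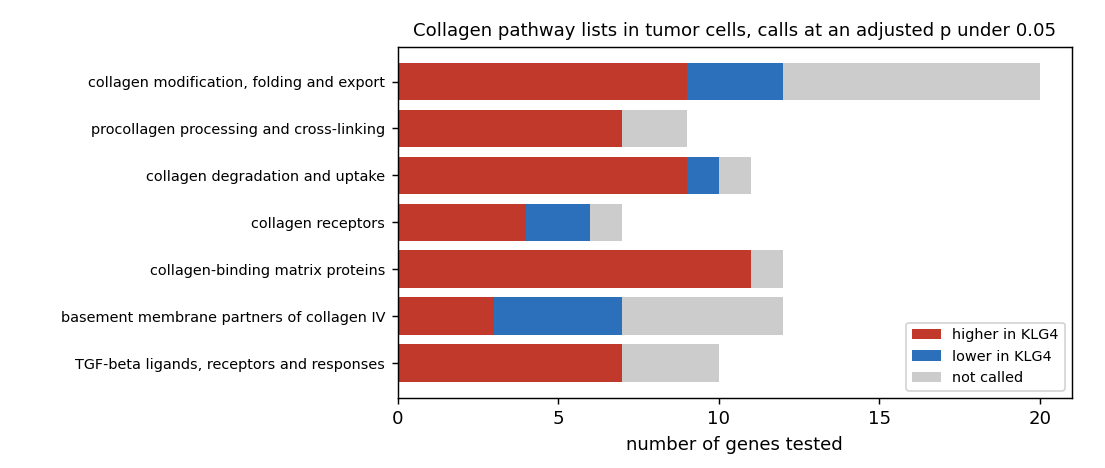
Number of tested genes of each collagen-related list in tumor cells that were called higher in KLG4 (red), lower (blue) or not called (grey) at an adjusted p under 0.05. Collagen-binding matrix genes show 11 of 12 in red, of which 5 were tested through KLG4 alone, and the basement membrane partners show 3 red, 2 of them tested in that way, and 4 blue of 12.

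In TRMs collagen levels were low, with sums over the 21 listed members of 14.1 and 17.9 RPKM in KLG4, next to KL levels of 16.96 and 23.8 RPKM. Of the 5 members tested, 0 were called (background 1.8%), and 4 had an unadjusted p under 0.05 in limma (background 28.3%), 2 of them higher (25.5%) and 2 lower (2.78%). Groups did not overlap for any of the 5, with 2 higher (53.7% of all genes) and 3 lower (8.95%). By direction, 1.36% of all genes were called higher and 0.437% lower. Col4a1 was the highest on average, at 1.86 and 2.58 RPKM in KLG4, next to KL levels of 4.74 and 7.99 RPKM (-1.45, SE 0.35, adjusted p = 0.08). Col4a2 was at 1.56 and 2.31 RPKM against 2.63 and 3.82 RPKM (-0.71, adjusted p = 0.243). Col6a1 was at 0.358 and 0.660 RPKM against 1.46 and 1.499 RPKM (-1.42, adjusted p = 0.147). For these 3 genes both KLG4 libraries were below both KL libraries, while the median log2 fold change of all genes tested was 0.38. Relative to that median the log2 differences were -1.83 for Col4a1, -1.09 for Col4a2 and -1.80 for Col6a1. With limma-voom on the recovered reads these 3 genes were called lower, at adjusted p = 0.00293, 0.033 and 0.0329, where 7.25% of all genes were called and 3.11% called lower. Col6a1 had both KLG4 libraries under 1 RPKM and passed the filter through KL alone.

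Col15a1, at 4.02 and 5.43 RPKM in KLG4 TRMs and 2.835 and 2.22 RPKM in KL (0.87, adjusted p = 0.134 in limma), and Col11a2, at 2.48 and 2.005 RPKM against 1.11 and 1.22 RPKM (0.88, adjusted p = 0.171), were above in both KLG4 libraries. Relative to the median of all genes the differences were 0.49 for Col15a1 and 0.50 for Col11a2. The other 16 listed members averaged 0.0762 to 0.638 RPKM, and 4 of them were separated upward (28.8% of all genes below the filter), 7 downward (18.4%) and 5 overlapped. Of those with the highest means, Col20a1 was at 0.811 and 1.298 RPKM against 0.286 and 0.1565 RPKM and Col6a3 at 0.696 and 0.448 RPKM against 0.184 and 0.183 RPKM, and both were above in KLG4. Col3a1 (0.194 and 0.269 RPKM against 0.469 and 1.54 RPKM) and Col18a1 (0.0958 and 0.3635 RPKM against 0.798 and 0.654 RPKM) were below. Col14a1 (0.208 and 0.631 RPKM against 0.342 and 0.484 RPKM), Col7a1 (0.476 and 0.380 RPKM against 0.292 and 0.383 RPKM) and Col1a1 (0.0911 and 0.1555 RPKM against 0.122 and 0.9335 RPKM) overlapped. Col1a1 rested on 8 to 56 reads in a library.

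Most epithelial and alveolar markers, and those of pericytes and smooth muscle, lay in the same direction as Col4a1, Col4a2 and Col6a1 in TRMs. Of all genes tested there 0.437% were called lower, and groups did not overlap for 8.95% downward and 53.7% upward. The sums of the endothelial list overlapped, at 21.2 and 26.1 RPKM in KLG4 against 24.4 and 25.1 RPKM in KL. Of its 4 tested genes 0 were called, and groups did not overlap for 2 downward and 1 upward. The AT2 list summed to 32.1 and 65.0 RPKM in KLG4 TRMs and 167.7 and 179.1 RPKM in KL, with 2 of 7 tested genes called lower, a median log2 fold change of -1.90, and groups that did not overlap (separated) for 5 genes downward and 1 upward. The epithelial list summed to 65.7 and 105.1 RPKM against 127.5 and 145.5 RPKM, with 0 of 6 called, 4 separated downward, 1 upward and a median log2 fold change of -1.61. Among its most abundant genes Epcam overlapped, at 13.1 and 27.1 RPKM against 16.7 and 19.5 RPKM, and Krt19 was at 15.95 and 23.2 RPKM against 30.03 and 33.7 RPKM (-0.72). Krt8 (-3.06) and Krt18 (-3.33), chosen after their values were seen, had the lowest fold changes of that list. The AT1 sums overlapped, at 73.55 and 81.6 RPKM against 80.75 and 77.8 RPKM, with Pdpn the most abundant (0.83), while 3 of 6 tested genes were separated downward, 2 upward and the median was -0.84. The pericyte and smooth muscle list summed to 3.095 and 3.57 RPKM against 6.2 and 6.88 RPKM, with 0 of 3 called, 2 separated downward and a median of -1.82. No listed gene of these was at 0 in all 4 libraries, and their part in the collagen values was not tested. Of the 10 fibroblast markers 1 was listed, Pdgfra, at 0.320 and 0.424 RPKM against 0.459 and 0.5675 RPKM. The macrophage list summed to between 6572 and 7965 RPKM in the 4 libraries, and the alveolar macrophage list to 8680 and 7638 RPKM against 3750 and 3977 RPKM, with 2 of 8 genes higher. Of the collagen-related lists in TRMs, 2 of 6 degradation and uptake genes and 1 of 2 collagen-binding matrix genes (Fn1, log2 fold change 2.28) were called higher in limma, and 0 genes of the other lists were called.

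In MDMs the sums over the 23 listed members were 39.65 and 43.9 RPKM in KLG4, next to KL levels of 41.6 and 92.85 RPKM. KL replicate 2 stood apart. It also had the highest sums of epithelial markers (260.7 RPKM against 18.4, 59.6 and 73.4 RPKM in the other 3 libraries), AT2 markers (377.0 RPKM against 37.05 to 155.6 RPKM), AT1 markers (123.7 RPKM against 34.4 to 59.5 RPKM), pericyte and smooth muscle markers (21.75 RPKM against 6.02 to 8.87 RPKM) and endothelial markers (64.3 RPKM against 27.8 to 34.7 RPKM), whose part in the collagen values was not tested. Of the 7 members tested 0 were called in limma or limma-voom, as were 0.0% of all genes in limma, and 3 had an unadjusted p under 0.05 in limma (background 6.74%), 1 of them higher (2.82%) and 2 lower (3.92%). Groups did not overlap for 3 members higher in KLG4 (25.4% of all genes) and 2 lower (19.1%). Without KL replicate 1, which left KL replicate 2 as the lone KL library, 4 were called, as were 25.6% of all genes, with the spread taken from the KLG4 libraries. These were Col15a1 (1.16) and Col20a1 (1.55) higher, and Col4a1 (-3.03) and Col4a2 (-2.12) lower.

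Col15a1 was the highest member in KLG4 MDMs, at 14.9 and 13.9 RPKM against 9.33 and 6.375 RPKM in KL (0.89, SE 0.27, adjusted p = 0.679 in limma). Col11a2 was at 9.31 and 11.9 RPKM against 7.82 and 10.2 RPKM (0.24, adjusted p = 0.762), and the genotypes overlapped. Col4a1 was at 3.05 and 3.85 RPKM in KLG4, next to KL levels of 7.665 and 28.8 RPKM (-2.09, SE 0.66, adjusted p = 0.679). Col4a2 was at 3.12 and 3.74 RPKM against 5.55 and 15.1 RPKM (-1.40, SE 0.52). The 2 KL replicates of Col4a1 differed from each other by more than KL replicate 1 differed from KLG4.

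Of the remaining tested members, Col20a1 was at 1.345 and 1.915 RPKM in KLG4, next to KL levels of 1.298 and 0.483 RPKM (0.92, adjusted p = 0.679 in limma). Col7a1 was at 2.37 and 2.65 RPKM against 2.08 and 2.17 RPKM (0.22), and Col9a3 at 1.44 and 1.56 RPKM against 1.85 and 1.05 RPKM (0.10). Among the 16 below the filter, 13 had both KL libraries above both KLG4 libraries (30.6% of all genes below the filter). Col6a1 was at 0.736 and 0.693 RPKM in KLG4, next to KL levels of 0.910 and 5.48 RPKM, Col3a1 at 0.414 and 0.462 RPKM against 0.637 and 4.28 RPKM, and Col18a1 at 0.186 and 0.536 RPKM against 0.752 and 4.035 RPKM. Col1a1 (0.5495 and 0.410 RPKM against 0.6895 and 2.88 RPKM) and Col5a2 (0.128 and 0.192 RPKM against 0.427 and 2.14 RPKM) had the same shape. The fibroblast list had 3 of 10 genes in this table. Pi16, the one tested, was the most abundant of the 3, at 13.65 and 11.06 RPKM against 10.05 and 10.7 RPKM (0.24, adjusted p = 0.723). Pdgfra was at 0.226 and 0.253 RPKM against 0.403 and 1.19 RPKM and Pdgfrb, the other defining marker, at 0.140 and 0.112 RPKM against 0.354 and 1.23 RPKM. Of the collagen-related lists 0 genes were called in limma.

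**Figure D5:**
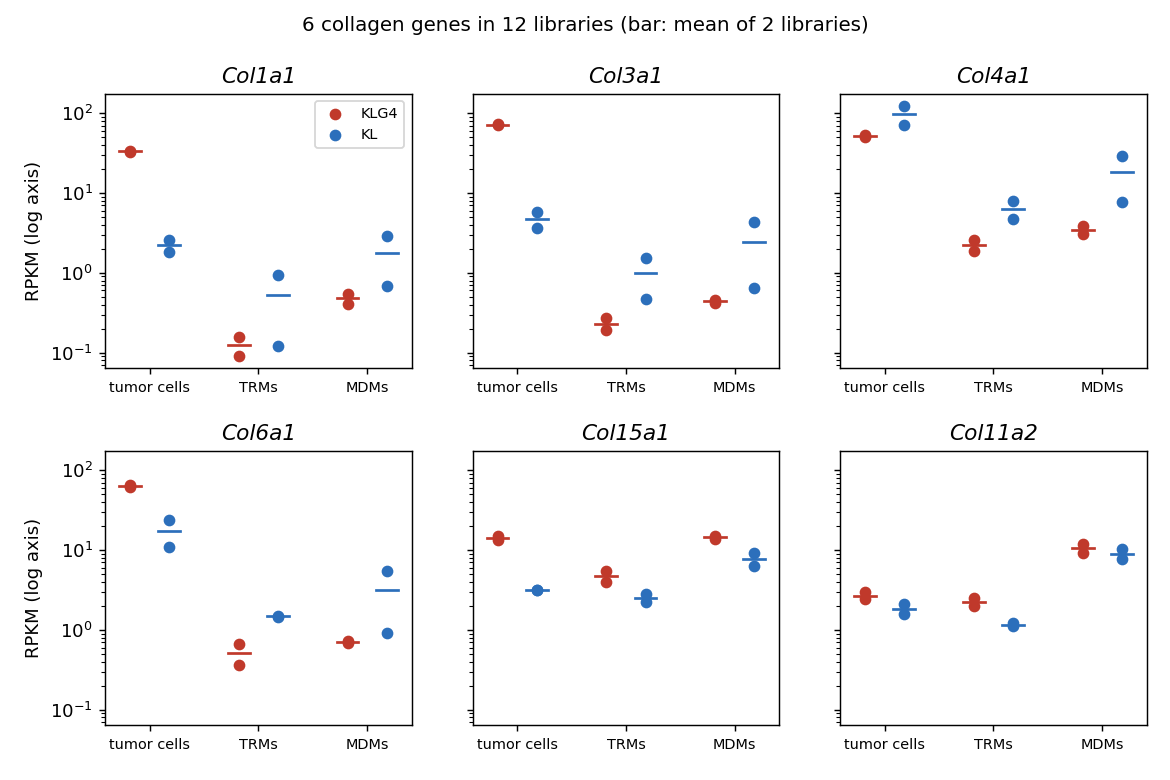
RPKM of 6 collagen genes on a log axis in the 12 libraries, with tumor cells, TRMs and MDMs along the horizontal axis, KLG4 in red, KL in blue and a bar at the mean of 2 libraries. Col15a1 lies higher in KLG4 and Col4a1 lower in KLG4 in each of the 3 populations, whereas the red points of Col1a1 and Col3a1 lie above the blue ones in tumor cells and not in TRMs or MDMs.

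The 3 tables were deposited separately, so that levels were set side by side without a test. The members tested in all 3 were Col4a1, Col4a2, Col11a2 and Col15a1. Of these, Col15a1 had both KLG4 libraries above both KL libraries in tumor cells, TRMs and MDMs, with log2 fold changes of 2.14, 0.87 and 0.89. Col4a1 (-0.86, -1.45 and -2.09) and Col4a2 (-0.87, -0.71 and -1.40) were below in all 3, and none of these 6 values passed at an adjusted p under 0.05 in limma. Among members not tested in every population, Col20a1 and Col27a1 were also above in all 3, and Col4a3 and Col18a1 below. The share of all genes on the same side in all 3 was not computed. Of the fibrillar members, Col3a1 was at 70.9 and 72.99 RPKM in KLG4 tumor cells, at 0.194 and 0.269 RPKM in KLG4 TRMs and at 0.414 and 0.462 RPKM in KLG4 MDMs. Col11a2 was higher in MDMs (7.82 to 11.9 RPKM) than in tumor cells (1.57 to 2.97 RPKM) or TRMs (1.11 to 2.48 RPKM).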

How the data were processed

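RNA of sorted tumor cells, TRMs and MDMs was compared between KLG4 and KL, 2 libraries each. Per the submitters' processing notes, reads were trimmed with Trim Galore 0.6.4, aligned with HISAT2 2.0.5 and counted with featureCounts 2.0.0, and the build was GRCm38. The authors deposited RPKM for each library in 1 table per population. Gene length, deposited in the tumor cell table alone, is the other quantity used. The deposited columns of the authors' own comparisons (their log2 ratios with raw and corrected p-values, and a mean level and F statistic for macrophages) were not used.

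Each table was tested alone, since the tables were deposited separately. Genes at 1 RPKM or more in at least 2 of 4 libraries were fitted as log2(RPKM + 0.1) with limma 3.58.1 in R 4.3.3 (trend, two-sided, Benjamini-Hochberg over all genes of the table), so that fold changes of low genes are understated. SE is the standard error of the log2 fold change. Whole reads were recovered from RPKM and length (100.0% of values below 2000 reads lay within 0.05 of a whole number in the tumor cell table) and gave the depth and the limma-voom alternative. Odd numbers made up only 17.4% to 32.5% of low read values, and mates of a pair appear to have been mostly both counted. The read numbers given here therefore overstate the number of fragments. The fit was also run on simulated reads after the data were fitted, with the noise set from the fitted standard errors. A spreadsheet had turned 19 to 21 gene names per table into dates.

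The members and lists were chosen with earlier results of these data known. In each population the 12 members with the highest mean, all members called up to 20, the 3 most abundant tested genes of each list and the defining markers were named, except that 1 list gene and part of the genotype are not reported here. Motifs were searched in RefSeq promoters (GRCm38.p6). Alternatives were pseudocount, filter, scaling, trend, voom, replicate block, averaging of the KLG4 libraries and leaving out each library. Samples of other cell types were not analysed here. With 2 libraries a group, an exact permutation test cannot reach 0.05, so none was run.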

Additional observations from a re-analysis of the deposited data

Results flagged for a closer look

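Col6a1 was higher in KLG4 tumor cells (log2 fold change 1.95) and below KL in both KLG4 TRM libraries (-1.42), a difference of 3.37. Every library of each comparison lay on its side. In TRMs Col6a1 was tested through KL alone, so that it had to be lower in KLG4 there. It was not called in TRMs (adjusted p = 0.147 in limma) and rested on 34 to 64 reads in a library. Sex and genotype cannot be told apart in that population. Col7a1 was lower in KLG4 tumor cells (-1.56) and slightly above KL in both KLG4 MDM libraries (0.22), a difference of -1.78. These were 2 of 17 pairs of values compared between populations. The tables were deposited separately, and the difference was not tested in either case.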

How the results depend on the processing

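In tumor cells the median log2 fold change of the members was 1.03 with a pseudocount of 1, 1.72 with no filter, 3.61 with a filter at a mean of 5 RPKM and 1.71 with quantile scaling. The filter at a mean of 5 RPKM left 14 members, with 12 called, 10 higher and 2 lower, since fewer genes were tested. Under that filter 46.7% of all genes were called and 28.1% were called lower. Members called lower numbered 0 with the KLG4 libraries averaged and 0 to 7 when a library was left out. The share of all genes called lower moved the same way. It fell with the KLG4 libraries averaged or either one left out, and rose with either KL library left out. Each of these fits held a lone sample of a genotype, so that the range says nothing particular to the collagens. Col4a6 turned to -0.28 with quantile scaling and ranged from -0.42 to 0.86 when a library was left out, with -0.06 without KLG4 replicate 1, and the cause was not tested. All 21 calls were kept under both pseudocounts, no filter, all scalings, no trend and voom, and Col4a1 was added with a pseudocount of 1, no filter and TMM scaling, and Col4a1 and Col4a2 with voom. With no filter Col17a1, Col24a1, Col26a1, Col6a6 and Col9a2 were called as well. In TRMs voom called 3 members, 3 of them lower, and the filter at a mean of 5 RPKM left no member to test. In MDMs the median was -1.27 with no filter, -0.58 with the filter at a mean of 5 RPKM and 0.059 to 0.303 when a library was left out. Without KL replicate 1, 4 members were called, 2 higher and 2 lower, and Col9a3 ranged from -0.28 without KL replicate 2 to 0.47. Replicate numbers did not pair the libraries (correlation of deviations 0.019 in tumor cells, -0.06 in TRMs and 0.054 in MDMs). With the replicate block 23 members were called in tumor cells (39.1% of all genes), with Col4a1 (adjusted p = 0.0138 in limma) and Col4a2 (0.0218) added. In TRMs that block called 1 member (Col4a1, lower, adjusted p = 0.0485 in limma), beside 4.28% of all genes, and in MDMs it called 0 members, beside 0% of all genes. Scaling moved the share of called genes that were higher in KLG4 from 51.3% to 40.0% (quantile) and 61.1% (reads outside mitochondrial genes and 8 nuclear copies, chosen after seeing the data) in tumor cells, and from 75.8% to 37.5% and 25.8% in TRMs. Low members in macrophages rested on few reads.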
